A study of Mus musculus with 6 samples.

Results

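The hedgehog genes described here were the ligands Shh, Dhh and Ihh, the receptor Ptch1, its partner Smo, the ligand-binding inhibitor Hhip and the transcription factors Gli1, Gli2 and Gli3. They were chosen by gene symbol, with earlier results of these data known, and came to 9 of 54309 listed genes. The tissue was the proximal stump, on the side of the dorsal root ganglia, of left sciatic nerves that had been transected at mid-thigh 24 h earlier (axotomy) in C57BL/6 mice aged 6 to 8 weeks, and its poly(A) RNA was sequenced. The 6 libraries were 3 from females and 3 from males, each made from the pooled nerves of 2 mice, and every animal carried the same injury. The comparison was of females with males after the same injury. Sham nerves were not analysed here, and the values therefore say nothing of how axotomy changed a gene.

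In the hedgehog pathway a secreted ligand binds Ptch1, which otherwise holds Smo inactive, and released Smo acts through the primary cilium on the Gli factors. Gli1, Ptch1 and Hhip are themselves transcribed in response to the signal, so their mRNA is widely used as its readout. In peripheral nerve, Schwann cells make Dhh, which acts on the cells that form the perineurium, and Schwann cells of injured nerves are known to express Shh.

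Each library held between 49158283 and 69848769 estimated counts. A gene's level is given in TPM, which scales counts by transcript length and library total, and its sex difference in CPM, which scales them by the TMM-normalised library total. Of the 18424 genes with enough counts to be tested, 971 (5.27%) passed the threshold for a sex difference, an adjusted p under 0.1 in edgeR's quasi-likelihood test. That count rested on single libraries: it was 1 without female 1, 327 without female 2, 7 without male 3 and 2612 without female 3. Xist was at 418.5 CPM or more in females and at 2.86 CPM or less in males. The Y-linked Ddx3y was at 40.2 CPM or more in males and at 0 in 2 female libraries, with 2.21 CPM in female 3. The summed markers of myelinating Schwann cells were 24171.5 to 32616.1 CPM in females and 55712.8 to 65550.0 CPM in males, and those of central neurons 5.96 to 11.2 CPM and 20.4 to 42.5 CPM. In pooled whole tissue, fewer cells of a type and less RNA per cell cannot be told apart.

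Shh and Dhh were the most abundant of the hedgehog transcripts, and Ihh was barely detected. Across all 6 libraries, mean TPM was 155 for Shh, 126 for Dhh, 40.9 for Ptch1, 35.6 for Smo, 20.0 for Gli1, 1.79 for Gli2, 1.65 for Gli3, 0.136 for Hhip and 0.0889 for Ihh. Among 18533 protein-coding genes with a count, Shh stood at percentile 95.6 and Dhh at 94.5. Ptch1 stood at 82.3, Smo at 79.8 and Gli1 at 68.2. Gli2 and Gli3 stood at 33.9 and 33.2, and Hhip and Ihh at 17.8 and 15.3.

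**Figure D1:**
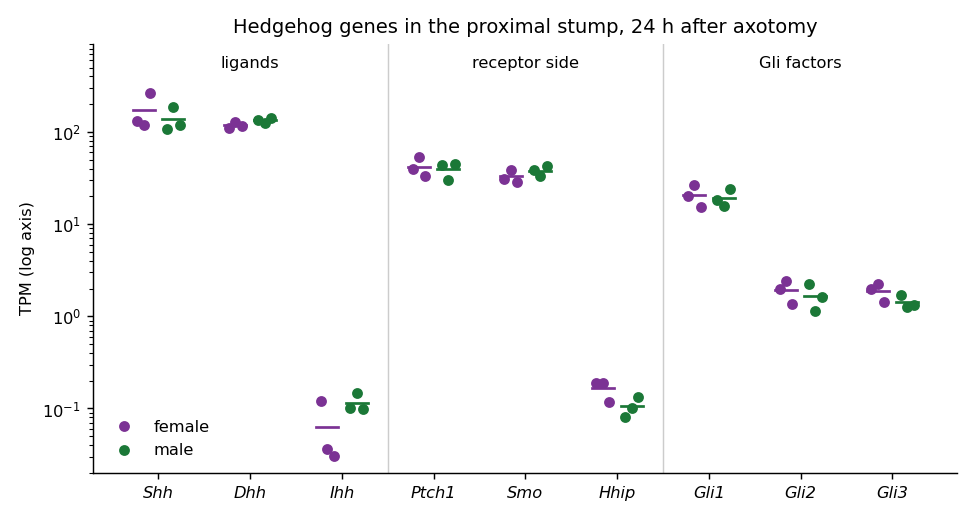
Levels of the 9 hedgehog genes in TPM (log axis), each point a library (3 female, 3 male), with a horizontal line at the mean of each sex. The levels fall into a high tier of Shh and Dhh, a middle tier of Ptch1, Smo and Gli1, and low levels of Gli2, Gli3, Hhip and Ihh, with the sexes side by side in each.

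Neighbours in this order were compared within libraries, by an exact two-sided sign-flip test of the log2 TPM difference over 6 libraries, whose smallest possible p is 0.03125. The order, and with it the pairs, came from these same libraries, so the p-values are not independent support for it. Dhh exceeded Ptch1 in 6 of 6 libraries, by 3.13-fold on average (exact sign-flip p = 0.03125, 0.0625 adjusted over 8 pairs). Smo exceeded Gli1 1.80-fold, Gli1 exceeded Gli2 11.2-fold and Gli3 exceeded Hhip 11.6-fold, each in 6 of 6 libraries and with the same p. The other 4 neighbouring pairs did not differ beyond their spread: Shh exceeded Dhh in 3 of 6 libraries, Ptch1 exceeded Smo in 5, Gli2 exceeded Gli3 in 3 and Hhip exceeded Ihh in 4. Among the transcription factors, Gli1 thus made up most of the message. Its share of the summed Gli TPM was 83.6%, 85.1% and 84.5% in females and 82.2%, 86.9% and 89.0% in males (male minus female 1.65 percentage points, exact two-sided permutation p = 0.5, where 3 against 3 libraries cannot give less than 0.1). Its share of the summed Gli counts was lower, at 71.3%, 72.8% and 69.8% in females and 71.2%, 73.0% and 78.3% in males.

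None of the hedgehog genes passed the threshold for a difference between the sexes. Of the 9, 8 had enough counts to be tested and 0 were called, beside 5.27% of all genes tested. None reached an unadjusted p under 0.05 in edgeR with all 6 libraries, beside 20.7% of all genes tested. With libraries left out some did, without being called: Dhh and Gli2 without female 3, Gli2 and Gli3 without male 1, Smo without male 2, and Dhh, Gli2 and Gli3 without female 3 and male 1 together. The share of all genes under that unadjusted p is not given for these settings, so the members cannot be set against it. Calls over all genes in these settings were, in that order, 2612 of 19076, 651 of 19055, 760 of 18872 and 1989 of 18817. With DESeq2 and with limma-voom 0 of the 8 were called as well, beside 13.2% and 4.64% of all genes tested, and 0 had an unadjusted p under 0.05. In CPM, 0 of the 8 were higher in every male than in every female library (13.9% of all genes tested) and 1, Hhip, was higher in every female than in every male (11.5%; either direction 25.5%). Dhh and Smo had higher fitted means in males and the other 6 had higher fitted means in females, with a median log2 fold change (male minus female) of -0.23, beside -0.03 over all genes tested.

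**Figure D2:**
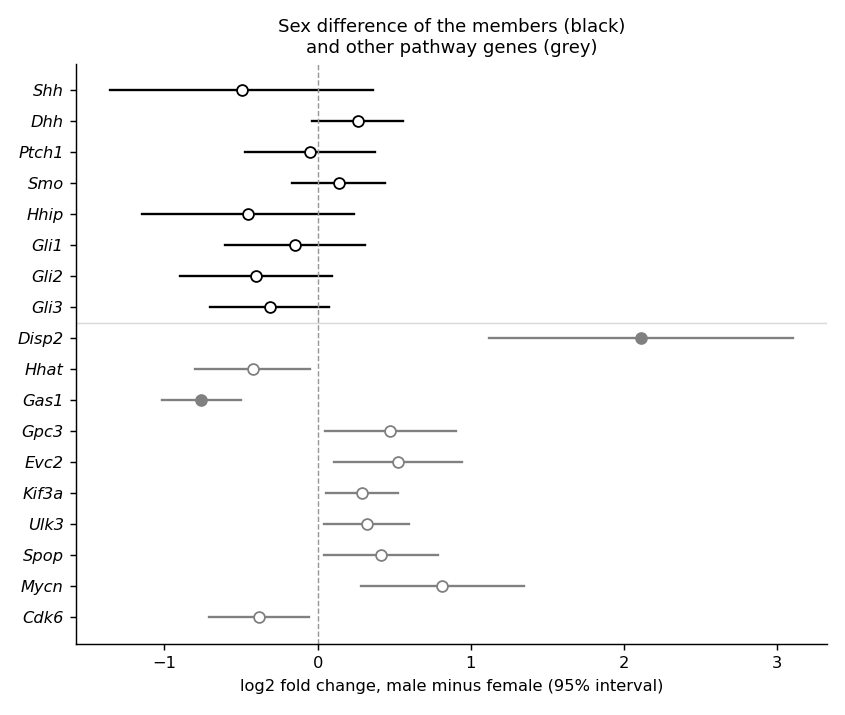
Log2 fold change of CPM, male minus female, with its 95% interval, for the 8 tested hedgehog genes (black) and 10 other pathway genes (grey), which were picked for the smallest p of their lists. Filled points passed an adjusted p of 0.1; every black interval crosses 0.

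The ligands differed from each other in how evenly they were expressed. Shh, which encodes Sonic hedgehog, lies on chromosome 5 (28661813 to 28672254, minus strand, GRCm39). The study on these samples had named Shh among the main contributors to variance in females, so its pattern here is not independent evidence. Shh measured 217.9, 182.9 and 484.2 CPM in female libraries 1, 2 and 3. In males it measured 171.6, 274.7 and 182.1 CPM. Female 3 stood far above the other females, male 2 was the highest male, and the ranges of the sexes overlapped. The log2 fold change was -0.49 ± 0.37 (SE, n = 3 per sex), with an interval from -1.35 to 0.36 and an adjusted p of 0.483 in edgeR. Female 3 set its sign: without that library it was 0.064 ± 0.22. Without female 3, the female library with most counts of the Y-linked Ddx3y (139), and male 1, the male library with most counts of Xist (193), it was 0.19 ± 0.23.

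Dhh, which encodes Desert hedgehog, lies on chromosome 15 (98789033 to 98796439, minus strand). It was the steadiest of the ligands. It measured 279.7, 299.9 and 352.6 CPM in females. The male libraries measured 373.1, 350.6 and 393.1 CPM. Female 3 and male 2 were so close that the sexes overlapped by 1 pair of libraries. Dhh had the smallest adjusted p of the members, 0.292 in edgeR, for a 1.20-fold higher mean in males (log2 fold change 0.26 ± 0.13, interval of the fold 0.976 to 1.47). Across 16 other settings its log2 fold change stayed between 0.19 and 0.36, with adjusted p from 0.112 to 0.637.

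The Dhh value is set beside the myelin genes, since Schwann cells are known to make both. Of 11 listed markers of myelinating Schwann cells, all 11 were tested and 7 were called higher in males, beside 3.81% of all genes tested. The median log2 fold change of the 11 was 0.97. Mbp, myelin basic protein, was 1.13 higher in males on the log2 scale. Egr2, the transcription factor of myelination, was 0.37 higher (adjusted p = 0.35) and did not pass the test. Over the 6 libraries, Dhh had a Pearson's r of 0.89 with the summed myelinating markers. Other marker lists came as close or closer, with an r of 0.96 for sensory neuron, -0.96 for macrophage and -0.93 for proliferation sums. The part of any of these lists in the Dhh value was not tested.

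Ihh, which encodes Indian hedgehog, lies on chromosome 1 (74984474 to 74990837, minus strand). It had 10, 3 and 3 estimated counts in females. In males it had 10, 11 and 7. These counts were too few for a test under the filter used. The summed TPM of the ligands lay between 241.5 and 381.6, highest in female 3. Dhh made up 46.2%, 52.1% and 30.05% of it in females and 55.4%, 40.1% and 54.4% in males. The libraries with the lowest Dhh share, female 3 and male 2, were those with the most Shh. The difference between the sexes in this share was within the spread of the libraries (male minus female 7.21 percentage points, exact two-sided permutation p = 0.5, smallest possible 0.1).

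On the receptor side, Ptch1 and Smo had similar means in the sexes and Hhip was scarce. Ptch1, the ligand receptor, lies on chromosome 13 (63656142 to 63721412, minus strand). It measured 176.2, 237.6 and 182.7 CPM in females. Male values were 214.4, 148.0 and 212.8 CPM. Female 2 was the highest and male 2 the lowest of all libraries, and the other 4 libraries lay between them with the sexes mixed. The log2 fold change was -0.05 ± 0.18, an interval of the fold from 0.719 to 1.29, with an adjusted p of 0.895. Its sign turned when female 2 (0.093) or male 2 (0.14) was left out.

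Smo, the seven-pass membrane protein that Ptch1 restrains, lies on chromosome 6 (29735407 to 29762532, plus strand). It measured 83.8, 97.1 and 81.0 CPM in females. The 3 male libraries gave 100.7, 81.3 and 106.2 CPM. The ranges overlapped, and the most and least abundant libraries differed by only 1.31-fold. The log2 fold change was 0.14 ± 0.13 (adjusted p = 0.587), and the interval of the fold, 0.892 to 1.36, leaves out a change of 2-fold in either direction.

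Hhip, a membrane-bound protein that binds hedgehog ligands and dampens the signal, lies on chromosome 8 (80692480 to 80784658, minus strand). It had 40, 47 and 46 estimated counts in females, or 0.781, 0.833 and 0.732 CPM. In males it had 29, 33 and 36 counts, or 0.430, 0.585 and 0.702 CPM. Every female library lay above every male library in CPM but not in TPM, where female 3 (0.117) lay below male 3 (0.134). The log2 fold change was -0.45 ± 0.30 (adjusted p = 0.422).

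The Gli factors were each highest in female 2 and lowest in male 2 by CPM. Gli1, the activator that is itself induced by the pathway, lies on chromosome 10 (127165751 to 127177865, minus strand). It measured 49.5, 61.7 and 39.9 CPM in females. In males it measured 46.7, 35.7 and 54.2 CPM. The ranges of the sexes overlapped. The log2 fold change was -0.15 ± 0.20 (adjusted p = 0.710), and it turned to 0.024 without female 2 and to 0.038 without male 2.

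Gli2, the main activator that starts the response, lies on chromosome 1 (118761858 to 118982598, minus strand). It measured 9.61, 11.3 and 7.81 CPM in females. The male libraries measured 8.77, 5.60 and 7.39 CPM. Its log2 fold change was -0.40 ± 0.21 (adjusted p = 0.328). Gli3, which is cut to a repressor when no ligand is bound, lies on chromosome 13 (15637809 to 15904611, plus strand). It measured 10.3, 11.7 and 9.40 CPM in females. Male values were 10.1, 7.60 and 7.64 CPM. Its log2 fold change was -0.31 ± 0.17 (adjusted p = 0.331). The ranges of the sexes overlapped for both genes. The interval of the fold, male over female, was 0.537 to 1.07 for Gli2 and 0.615 to 1.05 for Gli3.

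Female 3 and male 2 stood at the ends of several members. In male 2, Ptch1, Gli1, Gli2 and Gli3 were each at their lowest CPM of all 6 libraries, while Shh was at its second highest. By TPM, Gli1 was lower in female 3 (15.2) than in male 2 (15.9). In female 3, Shh was at its highest, and Gli1, Gli2, Gli3, Smo and Hhip were each the lowest of the 3 females. Ptch1 was not, with a CPM of 176.2 in female 1 and 182.7 in female 3. Female 2 held the highest Ptch1, Gli1, Gli2 and Gli3 of all 6.

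Markers of 18 lists, most of them for a cell type, were summed for each library, and some of these sums are set beside the members. The summed CPM of 9 markers of repair Schwann cells, the state Schwann cells take after injury, was 160.8, 143.0 and 204.4 in females. In males it was 107.0, 178.8 and 144.0 CPM. Female 3 and male 2 were highest in their sex, as for Shh. This was not particular to the list, since the summed neutrophil markers were also highest in female 3 and male 2 within their sex. Over the 6 libraries, Shh had a Pearson's r of 0.86 with the repair sums and 0.74 with the neutrophil sums. Of the 9 markers, 6 (Gdnf, Sox2, Btc, Ucn2, Runx2 and Fgf5) were highest in both of these libraries within their sex, and Ngfr, Artn and Olig1 were not. All 9 were tested and 1 was called, Olig1, higher in males, while the fitted means of the other 8 were lower in males. Olig1 is also an oligodendrocyte marker, and of that list 4 of 5 tested genes were called higher in males, with sums of 0.605 to 1.10 CPM in females and 8.40 to 25.2 CPM in males. Of 6 astrocyte markers 4 were called higher in males. The counts of both lists stand beside 3.81% of all genes tested. The study on these samples had reported Mog, Mobp, Opalin, Ermn, Olig1 and Olig2 of the oligodendrocyte list as raised after axotomy in males. It had reported the same of Gjb6 in the astrocyte list, and of Gdnf, Btc, Ucn2, Fgf5 and Sox2 in both sexes. These lists are therefore not independent evidence.

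The summed CPM of 5 perineurial markers was 564.7, 749.7 and 543.3 in females. In males it was 779.5, 525.6 and 777.2 CPM. Female 2 was the highest female and male 2 the lowest of all, as for Ptch1 and Gli1. The order was not particular to this list. Female 2 was also the highest female and male 2 the lowest male for fibroblast, non-myelinating Schwann, cartilage, motor neuron and skeletal muscle sums. The muscle sums were 316.9, 450.3 and 29.5 CPM in females and 6.17, 3.31 and 537.7 CPM in males. Gli1 had an r of 0.83 with the muscle sums and 0.75 with the perineurial sums. All 5 perineurial markers were tested and 0 were called. The tight-junction gene Cldn1, for example, measured 132.8 CPM in female 2 and 61.6 CPM in male 2. The summed markers of neutrophils ran the other way, at 563.2, 208.7 and 771.9 CPM in females and 409.6, 731.9 and 205.7 CPM in males. The part of these markers in the levels of the hedgehog genes was not tested.

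**Figure D3:**
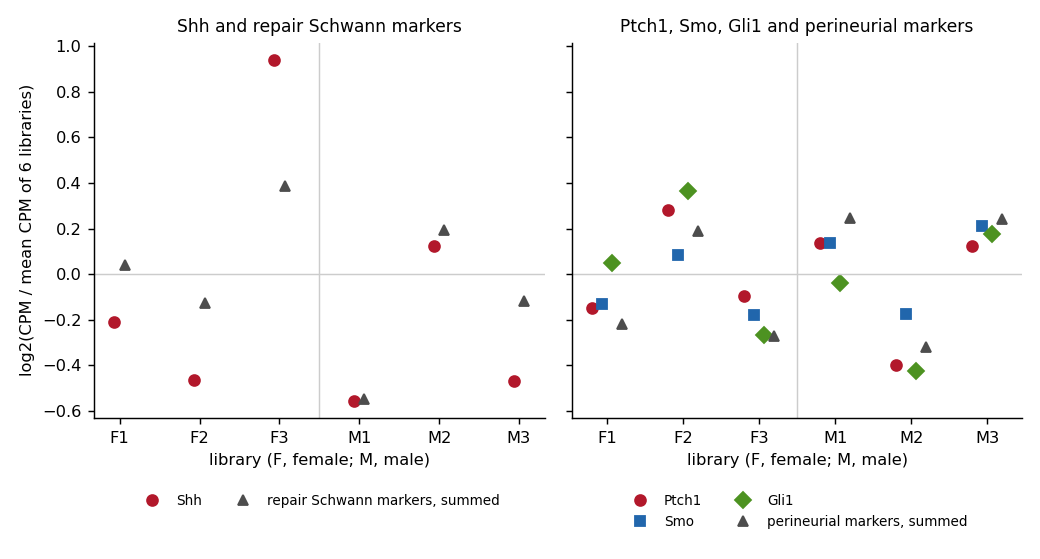
CPM of each gene, or summed CPM of a marker list, relative to its own mean over the 6 libraries, on a log2 scale, with 1 point per library (F1 to F3 female, M1 to M3 male). Left, Shh and 9 summed repair Schwann markers are highest in F3 and then M2. Right, Ptch1, Smo, Gli1 and 5 summed perineurial markers are all below their mean in F3 and M2. In F1, Ptch1, Smo and the perineurial markers are below their mean as well, and Gli1 is not.

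Genes with the most similar profile were sought among 11469 protein-coding genes whose mean CPM was at least 5, by Pearson's r of log2 CPM over the 6 libraries. The points share library composition and depth, and r is given as a description. For Shh they were Strap (r = 0.985), Mrpl42 (0.983) and Mtln (0.982). For Dhh they were Bnip3l (0.998), Tmem42 (0.993) and Cmtm6 (0.991). For Gli1 they were Slc4a4 (0.996), Fam214a (0.992) and Cul9 (0.991). An r of 0.95 or more was shared by 51 genes with Shh, 213 with Dhh and 41 with Gli1. Strap spanned a much narrower range than Shh, from 119.2 to 156.1 CPM.

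The reads were assigned to annotated transcripts, and most members rested on 1 of them. Shh had a single annotated transcript. Smo-201 carried 98.0% of Smo TPM, Gli3-201 97.8% of Gli3 and Gli2-201 89.7% of Gli2. Dhh-201 carried 92.7% of Dhh. The short Dhh-202 took 14.8%, 17.2% and 3.03% in females and 6.24%, 0.62% and 2.67% in males, so that females 1 and 2 stood above the rest. Gli1-201 carried 73.7% of Gli1, and Gli1-205, a retained-intron transcript of 795 bases, 24.7%, between 20.1% and 26.2% in every library. Shares of short transcripts rest on few distinguishing reads.

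Exons of Dhh share 546 of 4417 bases with the neighbouring gene Rhebl1 on the same strand in GENCODE M39, and 365 of 8832 exon bases of Smo overlap an annotated processed pseudogene, so reads from these stretches could be split between genes.

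**Figure D4:**
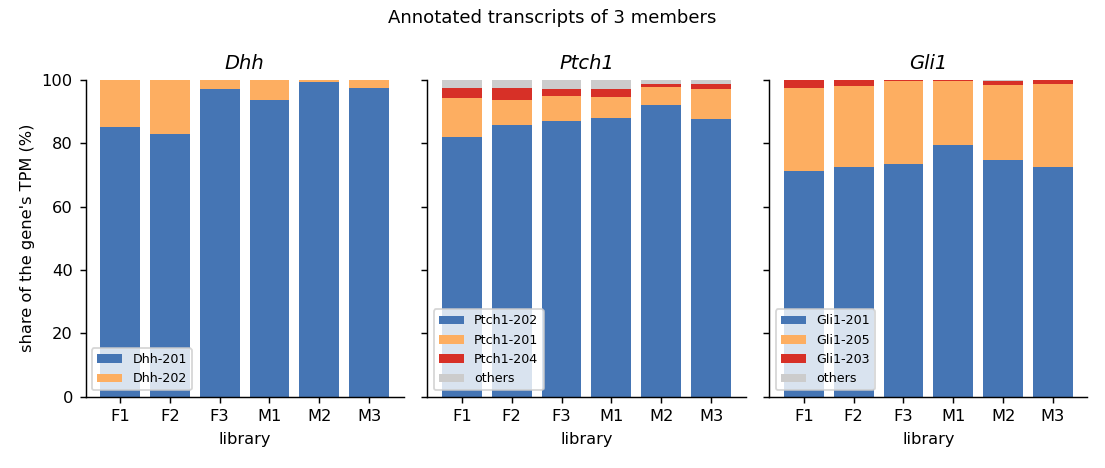
Share of each gene's TPM carried by its annotated transcripts, in percent, for Dhh, Ptch1 and Gli1, with 1 bar per library (F, female; M, male). The leading transcript holds 82.8% to 99.4% of Dhh, 82.1% to 92.0% of Ptch1 and 71.3% to 79.4% of Gli1.

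For Ptch1, Ptch1-202 carried 82.1%, 85.6% and 87.1% of TPM in females and 88.0%, 92.0% and 87.5% in males. The lowest male lay just above the highest female, and the shares were not tested. Ptch1-201 carried 8.37% on average and Ptch1-204, annotated as a nonsense-mediated decay transcript, 2.56%. These transcripts start at different places, and Ptch1 is a gene that Gli factors switch on, so the 250 bases before each start were searched on both strands for the Gli-binding motif TGGGTGGTC (GACCACCCA on the other strand). The sequences are read 5′ to 3′ on the minus strand of GRCm39 (chromosome 13), with the motif in capitals, and Ptch1-201 has a newer version in the annotation used than in the tables. The window before Ptch1-202, chr13:63712350-63712599, holds none. That before Ptch1-201, chr13:63714093-63714342, starts 1743 bases further upstream and holds 1, which begins 165 bases before the start. Ptch1-204 starts 8925 bases upstream of Ptch1-202 and holds 1 on the other strand, 13 bases before its start, of which 30 bases are shown (chr13:63721275-63721304).
Ptch1-202: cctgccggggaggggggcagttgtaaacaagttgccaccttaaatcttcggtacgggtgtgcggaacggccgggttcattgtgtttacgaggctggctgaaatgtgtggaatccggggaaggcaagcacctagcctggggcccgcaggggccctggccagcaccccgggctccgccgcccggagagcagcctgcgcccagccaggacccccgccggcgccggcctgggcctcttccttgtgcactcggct
Ptch1-201: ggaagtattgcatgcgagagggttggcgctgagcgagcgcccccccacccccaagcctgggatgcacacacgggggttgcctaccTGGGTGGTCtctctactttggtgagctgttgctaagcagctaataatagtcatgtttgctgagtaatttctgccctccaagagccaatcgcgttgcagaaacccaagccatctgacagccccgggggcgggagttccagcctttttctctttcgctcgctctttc
Ptch1-204: ctgcctatggcgcggcaGACCACCCAcgcc
The motif occurs in 145 of 67321 such windows before protein-coding transcript starts (0.215%). Like the window before Ptch1-202, none of those before the leading transcripts of the other 8 members holds it. For each of these members only 1 start was searched. A match is a description of these letters and not of binding.

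The rest of the pathway was read from a list of 54 further genes, chosen with earlier results of these data known. Of these, 52 were tested, 1 was called higher in males and 1 higher in females, beside 3.81% and 1.46% of all genes tested. The fitted mean was higher in males for 23 and in females for 29, and the median log2 fold change was -0.06. Lrp2 and Nkx2-2 had too few counts.

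Among 7 genes of ligand processing and release, 1 was called. Disp2, a relative of the transporter that releases lipid-bearing ligand, measured 1.09, 1.35 and 0.779 CPM in females. The 3 male libraries gave 2.11, 5.495 and 6.32 CPM. The log2 fold change was 2.11 ± 0.43, with an adjusted p of 0.0592. The call was lost with limma-voom (adjusted p = 0.109) and without female 1 (0.215), female 2 (0.113), male 2 (0.101) or male 3 (0.205). Its levels were lowest in male 1 among males, as were the summed central neuron markers, at 20.4, 38.7 and 42.5 CPM in males 1, 2 and 3. Of these 9 markers, 7 were called higher in males, beside 3.81% of all genes tested. Their part in the Disp2 value was not tested. Disp1, the transporter itself, measured 63.8 to 75.4 CPM in females and 69.6 to 97.7 CPM in males (log2 fold change 0.28 ± 0.14, adjusted p = 0.306). Hhat, the enzyme that palmitoylates the ligands, had a log2 fold change of -0.42 ± 0.16 and an adjusted p of 0.198.

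Among 6 ligand-binding genes, 5 were tested and 1 was called. Gas1, a membrane-anchored co-receptor, measured 29.4, 32.96 and 31.7 CPM in females. In males it measured 19.7, 16.9 and 19.1 CPM. The sexes did not overlap, and the mean was 1.69-fold higher in females (log2 fold change -0.76 ± 0.11, adjusted p = 0.0347). With an offset for transcript length the log2 fold change was -0.52 and the adjusted p 0.132, and the call was also lost without female 1 (0.146) or male 3 (0.141). The other co-receptors Cdon (-0.20 ± 0.21) and Boc (-0.18 ± 0.30) did not pass the test, and both were lowest in male 2. Gpc3, a glypican that competes for ligand, had a log2 fold change of 0.48 ± 0.18 (adjusted p = 0.201).

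Among 16 genes of the cilium and Smo transport, 16 were tested and 0 were called. The 2 with the smallest p were Evc2, a scaffold for Smo at the cilium base, with a log2 fold change of 0.52 ± 0.18 (adjusted p = 0.162), and Kif3a, a motor subunit that builds cilia, with 0.29 ± 0.10 (0.172). Among 12 genes that control Gli proteins, 12 were tested and 0 were called. Ulk3, a kinase that acts on Gli factors, had 0.32 ± 0.12 (0.189) and Spop, which targets full-length Gli2 and Gli3 for breakdown, 0.41 ± 0.16 (0.204). Sufu, the cytoplasmic inhibitor of the Gli factors, measured 23.7 to 25.1 CPM in females and 19.8 to 21.6 CPM in males. Its log2 fold change of -0.23 ± 0.10 did not pass the test (adjusted p = 0.251).

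Among 13 genes known as hedgehog targets in other tissues, 12 were tested and 0 were called, with a median log2 fold change of -0.08. Foxf2, Foxc2 and Ccnd1 among them had been named by the study on these samples and are not independent evidence of a direction. Mycn, a growth-promoting transcription factor, measured 2.71, 3.33 and 2.13 CPM in females. The male libraries measured 5.76, 4.18 and 4.43 CPM. The sexes did not overlap, and the log2 fold change of 0.81 ± 0.23 had an adjusted p of 0.114. Mycn passed the threshold with DESeq2 (adjusted p = 0.0173), which called 13.2% of all genes tested. It also passed with the transcript-length offset (0.0837), without a filter (0.092) and among protein-coding genes alone (0.0931). It did not pass with limma-voom (0.114), with the replicate block (0.214) or with any single library left out (0.117 to 0.307). Nor did it pass with female 3 and male 1 both left out (0.222). Cdk6, a cell-cycle kinase, measured 24.7 to 33.5 CPM in females and 21.4 to 24.3 CPM in males (-0.38 ± 0.14, adjusted p = 0.183). Ccnd1, cyclin D1, overlapped between the sexes, at 227.4 to 269.6 CPM in females and 219.5 to 254.6 CPM in males.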

How the data were processed

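Poly(A) RNA was sequenced as stranded paired-end libraries. The deposited tables give estimated counts and TPM for each transcript, which the authors made with Trimmomatic 0.39 and Salmon 1.5.2 (submitters' processing notes) on GENCODE mouse transcripts. The study names release M29 and the table names M27, both on GRCm39. Coordinates, overlaps and sequences came from GENCODE M39 on GRCm39.

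Values were summed over the transcripts of each gene symbol, and the estimated counts were rounded. The 9 members, the 54 other pathway genes and 18 marker lists were chosen with earlier results of these data known. Libraries were grouped by labelled sex. The main test was edgeR 4.0.16 (filterByExpr, TMM, quasi-likelihood F-test with sex as the only term, Benjamini-Hochberg adjustment over 18424 genes, adjusted p under 0.1), in R 4.3.3. The SE is the absolute log2 fold change over the square root of F. P-values measure the spread between pools. Alternatives were other size factors, DESeq2 1.42.0, limma-voom 3.58.1, 2 other filters on low counts, the protein-coding genes by themselves, an offset for transcript length, a block for replicate number, each library left out, and, chosen after seeing the data, female 3 and male 1 both left out. In data simulated from this comparison (18424 genes), 200 genes were changed, as many by 2-fold as by 4-fold. There edgeR recovered 39% of 2-fold and 86% of 4-fold changes. It made 29 false calls, a larger share of its calls than the 0.1 of the threshold. False calls numbered 89 with DESeq2 and 23 with limma-voom. Log2 TPM took a pseudocount of 0.01. Named were all members, called pathway genes, the 2 of smallest p per pathway list and the 3 most similar genes for Shh, Dhh and Gli1. Disp1, Cdon, Boc, Sufu and Ccnd1 were named after their values were seen, and some listed genes are not reported here. No library was a copy of another, with a chi-square per degree of freedom of 44.7 or more within each sex.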

Additional observations from a re-analysis of the deposited data

How the results depend on the processing

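None of the members was called under any of 17 other settings, in which 7 to 9 of them were tested. The smallest adjusted p was 0.112, for Dhh without female 3. With single libraries left out, the log2 fold change ranged from -0.75 to 0.064 for Shh (positive without female 3), from -0.14 to 0.14 for Ptch1 and from -0.29 to 0.038 for Gli1 (both positive without female 2 and without male 2, Ptch1 at 0.093 and 0.14 and Gli1 at 0.024 and 0.038). Shh was at 0.19 without female 3 and male 1 together. The 2 called pathway genes became 5 with DESeq2, 1 with limma-voom, 1 at an adjusted p under 0.05, 0 with the replicate number as a block, and 0 to 6 with single libraries left out (0 without female 1 or male 3, 6 without female 3). The calls over all genes moved as well. From 971 of 18424 they went to 2436 with DESeq2, 854 with limma-voom and 56 with the block. They were 1 of 19026 without female 1, 7 of 18936 without male 3 and 2612 of 19076 without female 3. Disp2 and Gas1 kept their direction throughout. Hhat, Ulk3, Spop and Cdk6 passed the threshold without female 3 (adjusted p from 0.0578 to 0.082), and Gpc3 and Evc2 with DESeq2 (0.087 and 0.0687). By CPM, which does not correct for length, Dhh came before Shh and Gli3 before Gli2, and 6 of the 8 neighbouring pairs had an adjusted p under 0.05 in the exact sign-flip test (0 by TPM, where 4 were at 0.0625). Same-numbered libraries did not deviate together (r = -0.04, -0.30 and -0.29 across genes), while differently numbered ones gave r from -0.14 to 0.39. With 3 libraries per sex, these values cannot settle whether the numbers mark pairs. The main test did not pair the libraries. With 3 pools per sex, the 95% interval of Shh still holds a mean 2-fold lower in males (fold 0.392 to 1.29).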
